A study of Mus musculus with 9 samples.

Results

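Actn3, Myom2, Srl, Pygm and Pkia are 5 genes that are enriched in skeletal muscle, and their levels were followed through cultures of mouse satellite cells, the stem cells of muscle, in 3 media. They are 5 of the 11148 rows of the expression table, chosen by gene name, and selected on their RPKM in these libraries, because earlier results of these data had shown them to differ between the media. Levels and medium differences of these 5 genes are therefore given as a description, with no test.

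Actn3, Myom2, Srl and Pygm belong to the late part of the muscle programme. Satellite cells proliferate as myoblasts after they leave rest, and when they stop dividing they fuse into myotubes and switch on the genes of the contractile apparatus, its calcium store and its fuel supply. Actn3 encodes the α-actinin of fast fibres, which crosslinks actin filaments at the Z-disc. Myom2 encodes a myomesin of the M-band, where myosin filaments are tied together. Srl encodes sarcalumenin, a calcium-binding protein of the sarcoplasmic reticulum. Pygm encodes the muscle form of glycogen phosphorylase, which releases glucose units from glycogen. Pkia encodes the α form of the heat-stable inhibitor of protein kinase A, the kinase activated by cyclic AMP.

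The satellite cells were taken from limb muscle of C57/BL6/DBA mice aged 1 to 3 days, with males and females pooled, and were grown on dishes coated with collagen. One group was kept in F10 medium and sampled at passage 0 (P0), and neither its serum nor its FGF is given. T cell medium was a 50:50 mixture of T cell medium with F10 medium that held 15% FBS, with FGF at 2.5 ng/ml, and was sampled at P0, P1, P2 and P15. Cytokine medium was F10 medium with 15% FBS, TNF-α (10 ng/ml), IL-13 (5 ng/ml), IFN-γ (10 ng/ml), IL-1α (5 ng/ml) and the same amount of FGF, and was sampled at the same 4 passages. Each combination was 1 library, 9 in all. The labels do not say whether the passages of a medium were 1 culture line. Values are RPKM, a read number divided by gene length and by library depth, and so can be compared between genes per length. The pooled mice and single libraries leave no replicate of any medium and passage. Intervals on a pair of libraries cover counting error only.

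The table holds 2 columns per sample, with a depth of about 13.0 to 18.2 M reads in the first and 11.9 to 16.8 M reads in the second. The columns of a sample differed by less than sampling noise (chi-square per row 0.558 to 0.594, against 2.82 to 15.2 between libraries) and were averaged as 1 sample. Most gene names in the table do not go with their values. A fit of row coordinates to annotated exons left 805 rows (7.22%) with names that could be used. Actn3, Srl, Pygm and Pkia are among them. Myom2 lies in the stretch of chromosome 8 whose best offset was -40 bp, but within the last 3 rows before the next change of offset. By that position its name is less certain. The best offsets were -120 bp for Actn3, Pygm and Pkia and -80 bp for Srl. Setting the offset to 0 cost 2.03 units of log-likelihood for Actn3 and Pygm. It cost 0.42 for Srl and 0 for Myom2 and Pkia. The rule for a usable name allowed a cost of up to 3, and Actn3 and Pygm came nearest to it. Rows named Pax7, Myf5 and Myod1, the usual markers of satellite cells and myoblasts, had no usable name, so the cell type was not checked with them.

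In GENCODE vM21 (GRCm38), Actn3 (ENSMUSG00000006457) lies on the minus strand of chromosome 19 from 4861216 to 4877909, with 2901 bases of exon. Pygm (ENSMUSG00000032648) lies on the plus strand of the same chromosome from 6384399 to 6398459, with 3218 bases of exon. Srl (ENSMUSG00000022519) lies on the minus strand of chromosome 16 from 4480216 to 4541816. Myom2 (ENSMUSG00000031461) lies on the plus strand of chromosome 8 from 15057653 to 15133541, and Pkia (ENSMUSG00000027499) on the plus strand of chromosome 3 from 7366669 to 7445366.

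Of the 5 genes, 1 had an entry in the RefSeq promoter table, Pygm. The 250 bases before its RefSeq start are shown for that reason. The window is chr19:6384158-6384407 of GRCm38.p6, plus strand, written 5′ to 3′, and capitals mark CAGCTG, a form of the E-box that factors of the MyoD family can bind.
Pygm: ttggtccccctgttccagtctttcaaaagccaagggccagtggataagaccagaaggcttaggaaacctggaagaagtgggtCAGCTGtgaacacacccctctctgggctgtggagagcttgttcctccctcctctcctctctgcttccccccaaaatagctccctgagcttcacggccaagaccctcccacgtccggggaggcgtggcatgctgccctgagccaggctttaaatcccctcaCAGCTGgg
The general E-box, CANNTG, occurred 2 times in this window, both times as CAGCTG, with first bases at -168 and -8 from the RefSeq start. The GENCODE start of Pygm, 6384399, lies inside the window and before the CAGCTG at -8. By that annotation this copy is within the gene and not upstream of it. Both motifs read the same on either strand, and every CAGCTG is also a CANNTG. Among all 32851 promoter windows of the same length, 66.2% held CANNTG, 13% held CAGCTG and 1.26% held it 2 or more times. The consensus site of the MEF2 factors, searched on both strands, was not in the Pygm window and was in 2.92% of all windows. A match of letters is a description and not a binding site.

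The Z-disc gene Actn3 measured 86.9, 50.8, 116 and 10.5 RPKM at P0, P1, P2 and P15 in T cell medium. In cytokine medium it was at 14.7, 4.79, 11.6 and 8.44 RPKM, and in F10 medium at 30.1 RPKM. The T cell library at P15 thus fell among the cytokine libraries, so the groups of 4 overlapped. At P0, P1 and P2 Actn3 was 5.9-fold (95% counting interval 5.43 to 6.43), 10.6-fold (9.34 to 12.1) and 9.97-fold (9.11 to 10.9) higher in T cell than in cytokine medium. At P15 it was 1.25-fold higher (1.08 to 1.44).

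Myom2 was the lowest of the 5 genes per length in all 9 libraries. In T cell medium it measured 10.2, 6.42, 16.3 and 1.62 RPKM over the 4 passages, against 1.49, 0.416, 1.52 and 1.18 RPKM in cytokine medium. F10 medium gave 3.19 RPKM. Every cytokine library was below every T cell library, although the highest cytokine value, that of P2, was within counting error of the T cell value at P15 (T cell over cytokine 1.07-fold, 95% counting interval 0.884 to 1.3). The difference between the media was 6.84-fold at P0, 15.4-fold at P1, 10.8-fold at P2 and 1.38-fold at P15. The value at P1 in cytokine medium had about 71 reads in the first of its 2 columns. Its fold has a counting interval of 12.1 to 20, from the reads of the first columns.

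**Figure D1:**
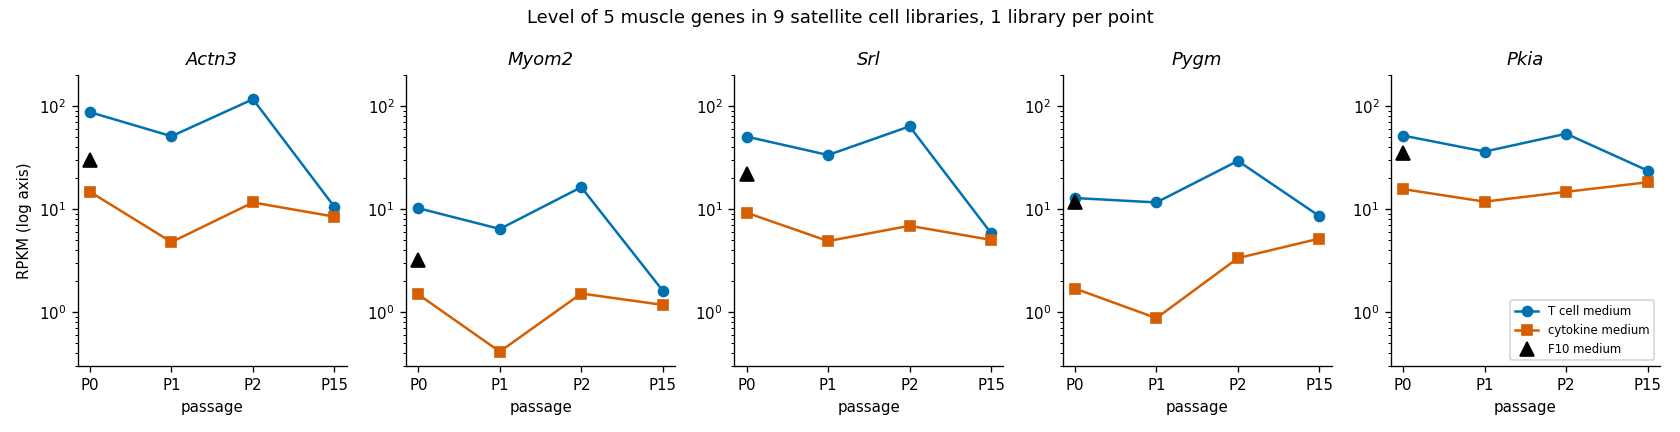
RPKM (log axis) of each of the 5 genes against passage (P0, P1, P2 and P15, evenly spaced), with 1 library per point, circles for T cell medium, squares for cytokine medium and a triangle for F10 medium at P0. The T cell line lies above the cytokine line at each passage, and the lines come closest at P15, where T cell medium was 1.16-fold (Srl) to 1.65-fold (Pygm) higher.

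The sarcoplasmic reticulum gene Srl had nearly the same profile as Actn3. In T cell medium it measured 50.4, 33.4, 63.3 and 5.85 RPKM from P0 to P15, against 9.22, 4.9, 6.89 and 5.03 RPKM in cytokine medium, with 21.9 RPKM in F10 medium. The P15 library of T cell medium lay below the P0 and P2 libraries of cytokine medium, so the groups overlapped. Srl was 5.46-fold, 6.82-fold and 9.19-fold higher in T cell medium at P0, P1 and P2. At P15 the difference was 1.16-fold, with a counting interval of 1.01 to 1.34. The ratio of Actn3 to Srl was between 1.38 and 1.82 in 8 of the 9 libraries and 0.977 in cytokine medium at P1.

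The glycogen phosphorylase gene Pygm had another profile in F10 medium and at P15. In F10 medium it stood at 11.8 RPKM, level with T cell medium at P0 (12.8 RPKM) and P1 (11.6 RPKM), where the other genes were lower in F10 medium than in T cell medium at P0. Its remaining T cell values were 29.3 RPKM at P2 and 8.55 RPKM at P15. In cytokine medium it measured 1.7, 0.878, 3.35 and 5.18 RPKM at P0, P1, P2 and P15, so its highest cytokine level was at P15. No cytokine library reached the lowest T cell library. T cell medium was 7.51-fold higher at P0, 13.2-fold at P1 (counting interval 10 to 17.8, from about 54 first-column reads in cytokine medium), 8.76-fold at P2 and 1.65-fold at P15.

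Pkia, the protein kinase A inhibitor gene, varied least. Its highest level was 4.56 times its lowest, against 39.3 times for Myom2, 33.4 for Pygm, 24.1 for Actn3 and 12.9 for Srl. From P0 to P15 it measured 51.5, 36.1, 53.7 and 23.6 RPKM in T cell medium and 15.6, 11.8, 14.7 and 18.2 RPKM in cytokine medium, with 34.6 RPKM in F10 medium. The media did not overlap, and T cell medium was 3.31-fold, 3.06-fold, 3.65-fold and 1.3-fold higher from P0 to P15. Of the 5 genes, Actn3 was the highest per length in 3 libraries, those of T cell medium at P0 to P2, and Pkia in the other 6.

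Over the 4 passages, all 5 genes had lower levels in cytokine medium than in T cell medium. The media also differ in their base, and cytokine amounts in T cell medium are not given. An effect of the added cytokines therefore cannot be told apart from one of the T cell medium. Differences below are of log2(RPKM + 1), a scale on which low genes change by less than their true fold. Mean RPKM in T cell and cytokine medium was 65.9 ± 45.5 and 9.88 ± 4.26 for Actn3, 38.3 ± 24.8 and 6.51 ± 2.02 for Srl (SD, n = 4 passages). For Pygm it was 15.6 ± 9.34 and 2.78 ± 1.9, for Pkia 41.2 ± 14.1 and 15.1 ± 2.63, and for Myom2 8.65 ± 6.21 and 1.15 ± 0.513. Pkia had the smallest mean log2 difference, -1.34 ± 0.66, and Actn3 the largest, -2.29 ± 1.37. With a pseudocount of 0.1, Pygm (-2.56) and Myom2 (-2.53) exceeded Actn3 (-2.39). The mean difference was at least 2-fold for 5 of 5 genes, where 1.5% of the 3210 rows with a mean of at least 1 RPKM were at least 2-fold lower. Each gene was lower in cytokine medium at 4 of 4 passages, as were 17.1% of these rows. For 3 of 5 (Myom2, Pygm and Pkia) no cytokine library reached a T cell library, which held for 5.51% of rows. Among the libraries of P0 to P2 alone this held for all 5 genes, beside 13.1% of rows. The 5 genes had a median of -2.02, and all rows a median of 0.03 with a 5th percentile of -0.5. The genes were chosen with this contrast known, so these counts carry no evidence of their own. The shares of rows given for the 5 genes further below rest on the same libraries and are descriptions too. These are bulk cultures, in which fewer cells with muscle transcripts and less transcript per cell cannot be told apart.

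**Figure D2:**
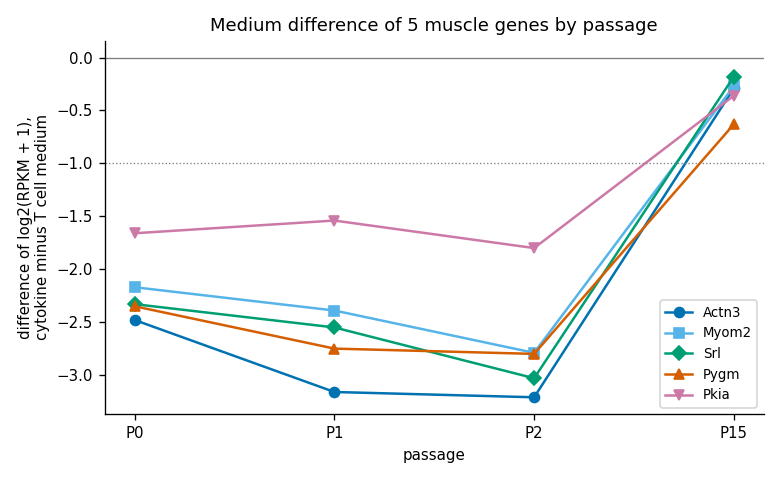
Difference of log2(RPKM + 1) between cytokine and T cell medium (below 0 is lower in cytokine medium) against passage, evenly spaced, 1 line per gene, with a dotted line at a 2-fold decrease. At P0 to P2 all 5 genes lie between -1.54 and -3.21, and at P15 between -0.18 and -0.63.

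The medium difference of the 5 genes was large at 3 passages and small at the last, where the spread of all rows was also smaller. The median log2 difference of the 5 genes was -2.33 at P0, -2.55 at P1 and -2.8 at P2, and each gene was at least 2-fold lower in cytokine medium at each of these passages. The shares of all rows that were this much lower were 1.59%, 1.81% and 3.36%. At P15 the median was -0.29 and 0 of 5 genes were 2-fold lower, as were 0.0623% of rows. The range from the 5th to the 95th percentile of all rows was -0.81 to 0.65 at P2 and -0.31 to 0.32 at P15. At P15 Pygm (-0.63) and Pkia (-0.36) lay below that range, and Actn3, Myom2 and Srl lay within it. The spread of the 3 early differences was small beside their size, from -1.67 ± 0.13 for Pkia to -2.95 ± 0.41 for Actn3 (SD, n = 3 passages). The P15 difference was nearer to 0 by 1.31 for Pkia, 2.01 for Pygm, 2.18 for Myom2, 2.45 for Srl and 2.67 for Actn3. With 1 library per medium at P15, an effect of passage cannot be told apart from an unusual P15 library.

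For Actn3, Myom2, Srl and Pkia most of this narrowing lay in T cell medium. For Pygm the log2 change was -0.87 in T cell and 1.14 in cytokine medium. It was -1.1 and 0.85 without P1, and -0.47 and 1.46 without P2, the highest T cell library. From the mean of P0, P1 and P2 to P15, Actn3 went from 84.4 ± 32.4 to 10.5 RPKM, Srl from 49.1 ± 15 to 5.85 RPKM and Myom2 from 11 ± 5.01 to 1.62 RPKM (SD, n = 3). These are 8.04-fold, 8.39-fold and 6.76-fold lower levels. Pkia was 2-fold lower (47.1 ± 9.62 to 23.6 RPKM) and Pygm 2.09-fold lower (17.9 ± 9.9 to 8.55 RPKM). For all 5 genes the P15 value was below each early T cell value, as it was for 26.4% of all rows. On the log2(RPKM + 1) scale 3 of 5 genes, Actn3, Srl and Myom2, were at least 2-fold lower, beside 1.62% of rows. Without P1, whose levels were the lowest of the early ones, the count was 5 of 5. The early T cell libraries were among those the genes were selected on, so these counts carry no evidence of their own.

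In cytokine medium the same step was small for Actn3, Myom2 and Srl and upward for the other 2. Actn3 went from 10.4 ± 5.08 RPKM over the early passages to 8.44 RPKM at P15, Srl from 7.01 ± 2.16 to 5.03 RPKM and Myom2 from 1.14 ± 0.628 to 1.18 RPKM, each within or close to the early spread. Pygm went from 1.98 ± 1.26 to 5.18 RPKM, 2.62-fold higher, and Pkia from 14 ± 1.99 to 18.2 RPKM, 1.29-fold higher. For Pygm and Pkia the P15 value was above each early cytokine value, as it was for 27.4% of rows. Both were also below each early value in T cell medium, a combination found in 2.68% of rows. Pygm was at least 2-fold higher on the log2 scale, beside 0.654% of rows, and was not when P1 was left out.

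**Figure D3:**
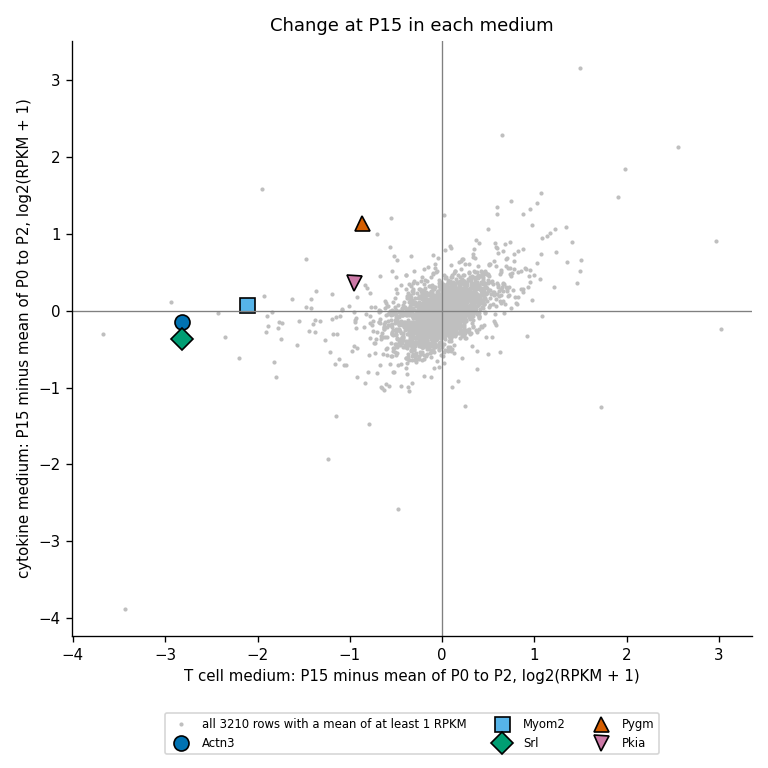
Change of log2(RPKM + 1) from the mean of P0 to P2 to P15 in T cell medium (horizontal) and in cytokine medium (vertical), with grey points for the 3210 rows with a mean of at least 1 RPKM and large symbols for the 5 genes. Actn3, Srl and Myom2 lie far left at -2.82, -2.82 and -2.11 near the horizontal line, and Pygm (-0.87 and 1.14) and Pkia (-0.95 and 0.36) lie in the upper left.

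Among the early passages, P1 was the lowest for all 5 genes in both media, a pattern found in 20.8% of all rows. In T cell medium the P2 level was 2.27 times the P1 level for Actn3, 2.55 for Myom2, 1.89 for Srl, 2.52 for Pygm and 1.49 for Pkia. In cytokine medium these ratios were 2.42, 3.65, 1.41, 3.81 and 1.25. The T cell library at P2 was the highest of all 9 for each of the 5 genes, as for 17.1% of rows, and the cytokine library at P1 was the lowest for each, as for 11.2% of rows. In the order of the 9 libraries, 9 of the 40 neighbouring pairs over the 5 genes had a counting interval that included equal levels. Among these were T cell medium at P2 and P0 for Pkia (1.04-fold, 0.989 to 1.1) and cytokine medium at P2 beside T cell medium at P15 for Actn3 (1.1-fold, 0.974 to 1.25). Cytokine medium at P15 and P1 for Srl was another (1.03-fold, 0.892 to 1.18), so its lowest library was not set apart.

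At P0, both other media were compared with F10 medium, whose library the comparisons share. T cell medium was 2.89-fold higher for Actn3 (95% counting interval 2.71 to 3.08), 3.2-fold for Myom2 (2.86 to 3.58), 2.3-fold for Srl (2.17 to 2.44) and 1.49-fold for Pkia (1.4 to 1.58). For Pygm it was 1.09-fold, with an interval of 0.965 to 1.22 that included equal levels. On the log2(RPKM + 1) scale 3 of 5 genes were at least 2-fold higher, beside 1.62% of all rows. F10 medium was higher than cytokine medium by 2.05-fold for Actn3 (1.86 to 2.25), 2.14-fold for Myom2 (1.81 to 2.54), 2.37-fold for Srl (2.18 to 2.59) and 2.22-fold for Pkia (2.05 to 2.41). For Pygm it was higher by 6.91-fold (5.47 to 8.82). On the log2(RPKM + 1) scale 3 of 5 genes (Srl, Pygm and Pkia) were at least 2-fold lower in cytokine medium, beside 1.62% of rows, and 5 of 5 were with a pseudocount of 0.1. The F10 library thus stood between the other P0 libraries for each gene, which held for 14.8% of rows, but Pygm sat at its T cell level and the other 4 did not. As the serum and FGF of the F10 library are not stated, their effect cannot be told apart from that of the media.

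Actn3, Myom2 and Srl varied almost in step. Over the 9 libraries, Pearson's r of log2(RPKM + 1) was 0.99 between Actn3 and Srl and between Actn3 and Myom2, and 0.97 between Myom2 and Srl, with Spearman's rho of 1, 0.93 and 0.93. Pygm was less like Actn3 (r = 0.85, rho = 0.83) and Srl (r = 0.81, rho = 0.83) than like Pkia (r = 0.94, rho = 0.97). Without the P15 libraries (n = 7) the correlation with Actn3 was 0.95 for Pygm and 0.98 for Pkia. The ratio of Actn3 to Pygm was 2.56 in F10 medium, 3.46 to 8.65 in the other libraries of P0 to P2, and 1.23 and 1.63 at P15 in T cell and cytokine medium. These points share their media and passages, and the correlations are descriptions.

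Few other muscle genes could be set beside them. Of the 55 further sarcomere genes listed, 35 had a row and 0 had a usable name. Of 37 genes of the sarcoplasmic reticulum, triad and excitability, 1 had a usable name, Popdc2, which encodes a membrane protein of striated muscle that binds cyclic AMP. Popdc2 was below the filter of 1 RPKM in the mean and was not tested. Its levels were 1.73 RPKM in F10 medium, 2.35, 0.742, 1.8 and 0.028 RPKM in T cell medium and 0.262, 0.147, 0.266 and 0.203 RPKM in cytokine medium from P0 to P15. At P0 to P2 every cytokine library was below every T cell library, as for 13.1% of the rows with a mean of at least 1 RPKM. At P15 the T cell library was the lowest of the 9. The low values of Popdc2 rest on a few reads.

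The other lists held 26 genes of glycogen and energy metabolism (2 with usable names), 17 of the protein kinase A pathway (4) and 26 of myogenic regulation and fusion (3). Of these, 5 had usable names and at least 1 RPKM and were tested between the media in limma, a linear model over all 3210 rows with passage as a term. Of these 5, 1 rose and 0 fell in cytokine medium (adjusted p under 0.05), where 5.36% of all rows rose and 5.73% fell. At an unadjusted p under 0.05 limma gave 1 of the 5 in each direction, beside 16.4% of all rows higher and 14.1% lower. The one that rose was Crem, which encodes a nuclear factor controlled by protein kinase A. It was at 2.21, 1.87, 1.78 and 3.13 RPKM in T cell medium and at 3.52, 5.03, 4.78 and 4.92 RPKM in cytokine medium. Crem had a log2 difference of 0.78 ± 0.12 (SE, limma adjusted p = 0.0227). Its call was lost without P0, without P1, without P2 and without a filter on low values. Crebbp, a coactivator of the same pathway, differed by -0.08 (limma adjusted p = 0.505). Boc, a surface receptor that promotes myogenic differentiation, was lower in cytokine medium at 4 of 4 passages by -0.57 ± 0.15 (SE) but did not pass (limma adjusted p = 0.0538). It passed with a pseudocount of 0.1 and without P15. Jam2, an adhesion gene, differed by 0.16 (limma adjusted p = 0.45) and passed without P15, and the metabolic regulator Esrra by 0.09 (limma adjusted p = 0.378).

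Gbe1, the glycogen branching enzyme gene, was at 0.581 to 0.776 RPKM in all 9 libraries, while Pygm, which acts on the same polymer, varied 33.4-fold. Adcy9, an adenylyl cyclase gene, was at 1.24 RPKM in F10 medium, 0.635 to 1.03 in T cell medium and 0.202 to 0.648 in cytokine medium. Adcy5, another cyclase gene, reached at most 0.0509 RPKM, and Chodl of the myogenic list 0.0362.

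Markers of other cell types were looked at beside these results. Of the smooth muscle list, 2 of 6 genes had usable names, and Myh11 reached at most 0.4 RPKM and Mylk 0.315, both in F10 medium. Their sum was 0.13 to 0.435 RPKM in T cell medium and 0.146 to 0.28 in cytokine medium. Of the fibroblast and adipocyte list 2 of 8 were usable, with Adipoq at 0 outside F10 medium and a sum of 0.204 to 0.613 RPKM in T cell and 0.253 to 2.15 in cytokine medium. Of the leukocyte list 3 of 9 were usable, with a sum of 1.06 to 4.41 RPKM in T cell and 1.51 to 3.39 in cytokine medium and Cd86 at 0 in all libraries but those of P15. Hcls1, a gene of blood cells, was at 0.0148, 0.0771, 0.0998 and 0.287 RPKM in T cell medium and at 0.437, 1.51, 1.72 and 0.95 RPKM in cytokine medium. Its order between the media was opposite to that of the muscle genes, but its mean of 0.572 RPKM was below the filter of 1 RPKM. Cd80, the most abundant of the 3, had 1.05, 2.06, 3.19 and 4.1 RPKM in T cell medium and 1.07, 0.624, 1.61 and 2.43 RPKM in cytokine medium. It was lower in cytokine medium at 3 of 4 passages. The nerve list (2 of 6 usable, Gap43 and Stmn2) summed to 3.24 to 21.4 RPKM in T cell and 3.76 to 44.6 in cytokine medium, most of it Stmn2 where the sum was high. Gap43 was higher in cytokine medium at 4 of 4 passages, with 2.46, 1.55, 0.585 and 4.57 RPKM in T cell medium and 2.96, 4.83, 9.07 and 6.62 RPKM in cytokine medium. Stmn2 was lower in cytokine medium at 1 of 4 passages, P1, and nearly equal at P0. It had 0.777, 8.01, 14.9 and 16.8 RPKM in T cell medium and 0.799, 0.963, 22.3 and 38 RPKM in cytokine medium. Its mean log2 difference was -0.13 ± 1.46 (SD, n = 4 passages). The endothelial list had 0 of 6 usable. How many of all rows were higher in cytokine medium at each passage was not counted. The part of these cell types in the muscle gene differences was not tested.

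The genes most like the 5 were sought among the 377 other rows with usable names and a mean of at least 5 RPKM, by Pearson's r over the 9 libraries with the mean of the 5 centred profiles. They were Igf2bp2 (r = 0.956), an RNA-binding protein gene active in myoblasts, Ankrd10 (0.946), Rps6kb2 (0.945), which encodes a ribosomal S6 kinase, Klhl24 (0.921) and Pold4 (0.918), a subunit of DNA polymerase δ. Their changes were smaller. Ankrd10 was at 53.2, 34.3, 50.4 and 30 RPKM in T cell medium and at 27.6, 24.5, 26.5 and 25.5 RPKM in cytokine medium from P0 to P15. The mean log2 difference between the media was -0.34 for Igf2bp2 to -0.89 for Pold4, against -1.34 to -2.29 for the 5 muscle genes. With Spearman's rho in place of Pearson's r, 3 of these 5 were among the first 5, and so were 3 without the P15 libraries.

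**Figure D4:**
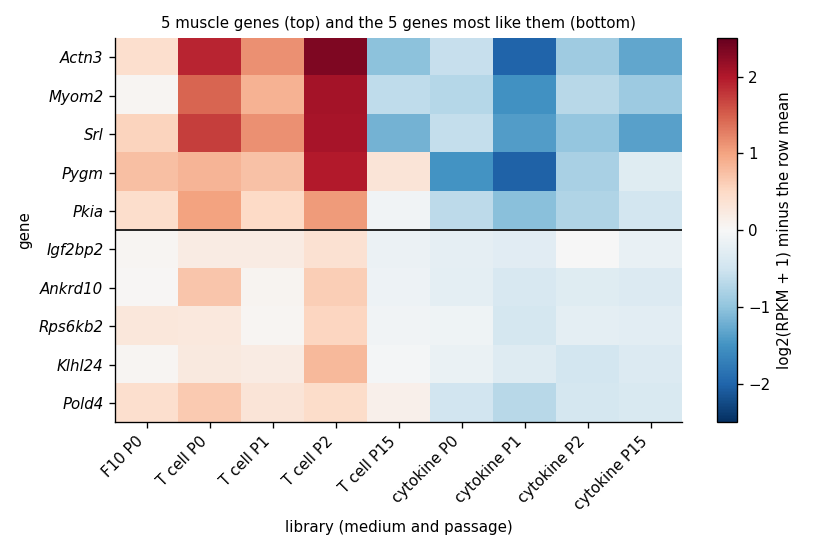
Colour gives log2(RPKM + 1) minus the mean of the row (red higher, blue lower) for the 5 muscle genes above the black line and the 5 genes most like them below it, with 1 column per library by medium and passage. The muscle genes are reddest in T cell medium at P2 and bluest in cytokine medium at P1, and the genes most like them follow in paler shades.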

How the data were processed

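RNA sequencing was run on 9 libraries of cultured mouse satellite cells, made with TruSeq kits per the labels' protocols. The authors deposited RPKM values in 2 columns per sample, per the file headers. Per the submitters' processing notes, TopHat2 2.0.1, HTSeq 0.5.4p2 and mm10 were used, with no role stated. How RPKM were scaled, the annotation and the strand setting were not given in the sources used here.

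Rows were matched by identifier to GENCODE vM21. A stepwise offset between rows and exons was fitted per chromosome (grid of 40 bp up to 8000000 bp, cost of 9 log-likelihood units per change). Names were used in a chromosome's first segment where an offset of 0 was at most 3 units worse, less its last 3 rows, a rule set after the data were seen. On simulated data with 1 offset change, 51 of 55, 63 of 70 and 43 of 46 rows on chromosomes 3, 9 and 19 were kept, and 0 wrongly. The rows to be kept there had no offset. The table itself was fitted with 86 segments, and the first segments used had best offsets of -40 to -440 bp. How the rule does with such small offsets was not tested. Read numbers came from the value of 1 read and are approximate.

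Columns were averaged. Differences used log2(RPKM + 1), and tests limma 3.58.1 (R 4.3.3) with trend and passage, Benjamini-Hochberg over 3210 rows. The labels give both media the same passages, and libraries of 1 passage deviated together from the means of their media (correlation across rows 0.15 to 0.71), so passage was kept as a block. Intervals are 95% exact conditional binomial. They use the approximate reads of the first column alone, scaled to the fold of the averaged values. The p-values measure the spread between passages, not between cultures. The members and gene lists were chosen with earlier results of these data known. Named were the 5 members, listed genes with usable names and the 5 rows most like the members.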

Additional observations from a re-analysis of the deposited data

Results flagged for a closer look

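At P15 Pygm and Pkia went in opposite directions in the 2 media. Pygm was below each of P0, P1 and P2 in T cell medium, by -0.87 on the log2(RPKM + 1) scale from their mean, and above each of them in cytokine medium, by 1.14. Pkia was likewise lower by -0.95 in T cell medium and higher by 0.36 in cytokine medium. Without P2 the changes of Pygm were -0.47 in T cell and 1.46 in cytokine medium. The difference between the media in this change was not tested, as each medium has 1 library at P15. The same pattern was found in 86 of 3210 rows (2.68%).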

How the results depend on the processing

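The 5 muscle genes were lower in cytokine medium than in T cell medium under every alternative run (pseudocount of 0.1 RPKM, quantile normalization, rescaling to the same sum, either column alone, and each passage left out), with 5 of 5 at least 2-fold lower in the mean each time. Against F10 medium at P0, the count at least 2-fold lower in cytokine medium was 5 with a pseudocount of 0.1. From the early passages to P15, leaving out an early passage gave 3 to 5 genes lower by at least 2-fold in T cell medium and 0 to 1 higher in cytokine medium. Single values of the 5 genes moved beyond their spread or counting interval in 12 of 45 cases with the pseudocount of 0.1 and in 2 of 45 with quantile normalization, without a change of sign among them. Within their spread, small changes at P15 in cytokine medium did change sign when an early passage was left out. Actn3 went from -0.15 to 0.14 without P0, and Myom2 from 0.07 to -0.2 without P1. Of the 5 genes most like the members, 3 were shared with Spearman's rho and 3 without P15.

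The limma counts between the media depended on the passages and the filter. The main counts were 172 rows higher and 184 lower in cytokine medium. Leaving out P0 gave 11 and 2, leaving out P1 8 and 3, leaving out P2 21 and 5, and leaving out P15 222 and 258. The fit without passage pairing, that is with no replicate block, gave 32 and 24. With no filter limma called 0 and 0, with 849 and 821 at an unadjusted p under 0.05, and with a filter of 5 RPKM 128 and 93. Of the 5 other listed muscle genes, leaving out a passage gave 0 to 2 higher and 0 to 1 lower. With no filter and with the filter of 5 RPKM, which Crem did not pass, 0 were higher, and with a pseudocount of 0.1 RPKM 1 was lower. The causes were not tested. Read numbers are estimates, and genes near 0 such as Popdc2 rest on a few reads.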
